A study of Mus musculus with 16 samples.

Results

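Among the genes of sorted mouse oligodendrocytes, 7 protein-coding genes stood out as higher on a high-fat diet than on a control diet, averaged over wild-type and App knock-in mice: Cdkn1a, Sh2b2, Prkar1b, Pla2g3, Inpp5j, Pdxk and Ada. They were 7 of 53801 gene rows in the deposited table, all 7 were among the 21768 genes that passed the filter on low counts, and they were chosen by the averaged diet contrast itself. Their diet values are therefore a description with no test, and tests are given only for genotype and for the interaction of diet and genotype.

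The libraries came from 16 male mice in 4 groups of 4. App_HFD were mice homozygous for the App NL-G-F knock-in allele on the high-fat diet, App_NCD the same genotype on the control diet, WT_HFD C57BL/6J Jcl wild-type mice on the high-fat diet and WT_NCD wild-type mice on the control diet. The knock-in App gene carries a humanized amyloid-β sequence with the Swedish, Beyreuther/Iberian and Arctic mutations. The high-fat diet (D12492) gave 60% of its energy as fat and the control diet (CE-2) gave 12.5%, for 6 months from 2 months of age, and the brains were taken at 8 months. The diets came from different makers. The wild-type mice were bought and the knock-in mice were bred as inbred lines, so genotype and breeding source cannot be told apart. Cells were isolated from brain by magnetic sorting, and poly(A) RNA was sequenced from directional libraries.

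Oligodendrocytes make and maintain the myelin sheaths of the brain. The 7 genes act in different processes. Cdkn1a encodes p21, an inhibitor of cyclin-dependent kinases and a classical target of p53. Sh2b2, also called APS, is an adaptor that binds the activated insulin receptor, and Prkar1b is a regulatory subunit that holds protein kinase A inactive until cAMP binds. Pla2g3 is a secreted phospholipase A2 that releases a fatty acid from phospholipids, and Inpp5j removes a phosphate from inositol lipids of the PI3-kinase pathway. Pdxk makes the active form of vitamin B6, the cofactor of transaminases, and Ada converts adenosine to inosine.

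Totals ran from 64538297 to 84114322 counts in App_HFD, from 69772745 to 101709022 in App_NCD, from 90220118 to 101737328 in WT_HFD and from 98588561 to 217925484 in WT_NCD. The members had 122 to 30474 counts per library. The library App_NCD 553 stood apart: 39.4% of its counts were mitochondrial, against 1.22% to 4.62% in the other 15, and it had 18928 genes above 0, against 27151 to 30617. WT_HFD 2 and WT_HFD 16 had haemoglobin shares of 0.929% and 0.515%, against 0.015% to 0.119% in the other 14. The 30 myelin and mature oligodendrocyte markers summed to 45688 to 78047 CPM, and in each of the 10 marker lists, other cell types included, no gene was at 0 in every library. App itself, whose altered coding sequence makes its level no check of the labels, was lower in the knock-in (log2 fold change -0.46 ± 0.109, SE; edgeR adjusted p = 0.00848). Levels are in CPM, counts scaled to a fixed TMM-adjusted library total, and per-library values follow the mouse numbers 547, 559, 560, 561 (App_HFD), 537, 538, 545, 553 (App_NCD), 2, 3, 15, 16 (WT_HFD) and 4, 5, 11, 12 (WT_NCD).

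Cdkn1a (ENSMUSG00000023067, mm10 chr17:29090976-29100727, plus strand) had 357, 243, 299.95 and 345 CPM in App_HFD, against 121, 120.2, 156 and 118 CPM in App_NCD. In wild type it had 115, 239.6, 192 and 279 CPM in WT_HFD, against 109.9, 95.2, 64.6 and 104 CPM in WT_NCD. The diets did not overlap within either genotype, and WT_HFD 2 was the lowest high-fat library, just above the highest WT_NCD library and below all 4 App_NCD libraries. The share of all tested genes without overlap between the diets was not computed, and the diet difference chose the members. Absence of overlap is therefore only a description, here and for each member below. The log2 fold change of the averaged diet contrast was 1.21 ± 0.171 (SE, 16 libraries) and 1.19 ± 0.171 without App_NCD 553. It was the largest of the 7, a 2.31-fold difference.

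RefSeq (GRCm38.p6) gives Cdkn1a 2 start sites with separate promoter windows, each of 250 bases before and 50 after the start. They are shown because Cdkn1a is the gene of the group with a textbook upstream factor, p53. The first is at chr17:29090729-29091028, plus strand and the second at chr17:29093519-29093818, plus strand. Capitals mark matches to p53 half-site decamers in the first window and to the GC box GGGCGG in the second.
Cdkn1a start 1: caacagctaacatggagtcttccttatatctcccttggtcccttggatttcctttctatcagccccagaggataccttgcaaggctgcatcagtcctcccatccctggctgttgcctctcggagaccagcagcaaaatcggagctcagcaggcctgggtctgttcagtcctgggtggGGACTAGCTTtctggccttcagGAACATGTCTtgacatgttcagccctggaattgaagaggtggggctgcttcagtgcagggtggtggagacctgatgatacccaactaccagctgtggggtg
Cdkn1a start 2: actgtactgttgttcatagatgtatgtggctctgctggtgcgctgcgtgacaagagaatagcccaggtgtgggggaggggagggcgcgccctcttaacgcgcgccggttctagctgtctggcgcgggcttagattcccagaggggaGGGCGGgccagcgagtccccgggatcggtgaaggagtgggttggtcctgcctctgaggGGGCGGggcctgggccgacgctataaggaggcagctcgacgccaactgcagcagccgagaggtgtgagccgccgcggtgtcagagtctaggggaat
The first window held 2 matches to the p53 half-site, at -73 and -51 bases from the start, and no GC box. The second held GC boxes at -104 and -46 and no p53 match. Of 32544 promoter windows, 8.36% held a p53 half-site match and 35.9% a GC box on either strand. A match is a description of letters, not a bound site.

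Sh2b2 (ENSMUSG00000005057, chr5:136218147-136246556, minus strand) had 66.2, 57.1, 52.5 and 59.8 CPM in App_HFD, against 39.97, 30.2, 33.8 and 19.7 CPM in App_NCD. In wild type it had 31.1, 51.0, 41.05 and 54.5 CPM in WT_HFD, against 25.1, 21.3, 16.8 and 23.4 CPM in WT_NCD. Each high-fat library lay above each control-diet library of its genotype, and WT_HFD 2 lay below 2 App_NCD libraries. The averaged diet value was 0.98 ± 0.152, and 0.90 ± 0.121 without App_NCD 553, the lowest library of its group. Prkar1b (ENSMUSG00000025855, chr5:139017306-139150001, minus strand) had 11.4, 11.8, 13.0 and 13.0 CPM in App_HFD, against 7.81, 5.58, 6.82 and 3.46 CPM in App_NCD. It had 7.13, 11.0, 9.72 and 8.96 CPM in WT_HFD, against 5.25, 4.37, 5.92 and 5.25 CPM in WT_NCD. The groups on the 2 diets did not overlap within a genotype, and App_NCD 553 was the lowest of the 16 libraries. The averaged diet value was 0.94 ± 0.153, and 0.85 ± 0.109 without it.

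Pla2g3 (ENSMUSG00000034579, chr11:3488284-3499350, plus strand) had 39.2, 23.2, 37.3 and 49.1 CPM in App_HFD, against 15.5, 14.9, 16.6 and 17.1 CPM in App_NCD. In wild type it had 18.4, 35.3, 26.6 and 30.2 CPM in WT_HFD, against 20.8, 12.7, 11.0 and 15.5 CPM in WT_NCD. This was the only member whose diets overlapped within a genotype, since WT_HFD 2 lay below WT_NCD 4, and the averaged diet value was 1.05 ± 0.174 (1.07 ± 0.174 without App_NCD 553). Inpp5j (ENSMUSG00000034570, chr11:3494375-3504821, minus strand) had 82.3, 67.7, 76.7 and 94.9 CPM in App_HFD, against 48.5, 38.3, 52.1 and 44.5 CPM in App_NCD. It had 54.9, 79.9, 75.3 and 75.2 CPM in WT_HFD, against 43.7, 54.2, 38.7 and 52.0 CPM in WT_NCD. All 8 high-fat libraries lay above all 8 control-diet libraries, WT_HFD 2 by less than 1 CPM, and the averaged value was the smallest of the 7 at 0.70 ± 0.113 (0.70 ± 0.109 without App_NCD 553). Pla2g3 and Inpp5j lie tail to tail on opposite strands and share 4976 bases, 401 of them in exons of both, which is 8.5% of the exon bases of Pla2g3 and 7.9% of those of Inpp5j. No strand setting of the counting is given in the sources used here, so reads in these bases cannot be told apart and the 2 genes are not fully separate observations.

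Pdxk (ENSMUSG00000032788, chr10:78436744-78464975, minus strand) had 249.5, 217, 186 and 288 CPM in App_HFD, against 132, 125, 129 and 109.7 CPM in App_NCD. In wild type it had 160.4, 221, 229 and 244 CPM in WT_HFD, against 130.2, 133, 70.4 and 141 CPM in WT_NCD. All 8 high-fat libraries exceeded all 8 control-diet libraries, and WT_NCD 11 was far below the rest of its group; the averaged diet value was 0.89 ± 0.146 (0.86 ± 0.143 without App_NCD 553). An antisense gene shares 2104 exon bases with Pdxk, 39.0% of its exon bases, but it was at no more than 0.19 CPM in any library. Ada (ENSMUSG00000017697, chr2:163726584-163750239, minus strand) had 21.1, 19.1, 15.8 and 23.3 CPM in App_HFD, against 11.4, 12.7, 11.6 and 8.52 CPM in App_NCD. It had 16.8, 19.7, 24.0 and 23.8 CPM in WT_HFD, against 13.3, 12.1, 8.72 and 12.3 CPM in WT_NCD. Here too no high-fat library reached down to a control-diet library, and the averaged value was 0.85 ± 0.13 (0.80 ± 0.111 without App_NCD 553).

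The promoters of Pdxk, Ada and Sh2b2 are shown to set their letters beside those of Cdkn1a. The RefSeq windows (GRCm38.p6) are at chr10:78464899-78465198, minus strand, at chr2:163750190-163750489, minus strand and at chr5:136244891-136245190, minus strand, each printed along its gene's strand. Capitals mark the GC box GGGCGG, the E-box CACGTG, the nuclear receptor half-site AGGTCA and the CCAAT box, on either strand.
Pdxk: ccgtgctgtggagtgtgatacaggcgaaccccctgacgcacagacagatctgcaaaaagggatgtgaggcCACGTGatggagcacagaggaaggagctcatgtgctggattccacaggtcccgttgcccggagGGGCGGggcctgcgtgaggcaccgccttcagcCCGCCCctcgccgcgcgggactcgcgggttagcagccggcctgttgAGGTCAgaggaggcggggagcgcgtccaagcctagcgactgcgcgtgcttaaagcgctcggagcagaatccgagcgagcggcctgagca
Ada: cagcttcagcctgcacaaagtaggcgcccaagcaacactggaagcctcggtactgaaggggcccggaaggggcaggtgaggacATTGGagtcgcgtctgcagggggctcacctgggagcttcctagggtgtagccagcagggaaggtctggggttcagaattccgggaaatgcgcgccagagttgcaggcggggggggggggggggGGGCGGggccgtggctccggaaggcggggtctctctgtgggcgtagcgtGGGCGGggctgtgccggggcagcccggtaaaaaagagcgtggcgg
Sh2b2: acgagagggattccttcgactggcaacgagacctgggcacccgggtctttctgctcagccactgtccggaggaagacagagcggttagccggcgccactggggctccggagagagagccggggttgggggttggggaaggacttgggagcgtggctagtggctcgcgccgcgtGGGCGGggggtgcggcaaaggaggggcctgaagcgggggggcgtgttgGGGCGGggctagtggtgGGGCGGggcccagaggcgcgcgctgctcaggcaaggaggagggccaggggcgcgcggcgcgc
All 3 windows held GC boxes, 3 of them in Sh2b2. Pdxk alone of these 3 held an E-box, found in 7.17% of all windows, and a nuclear receptor half-site, found in 16.2%. Ada held a CCAAT box, found in 37.4%. None of the 10 windows of the 5 members with an entry held the cAMP response element TGACGTCA (1.8% of all windows), the AP-1 site TGANTCA (7.79%), the FOXO site GTAAACA (3.66%), the TATA box TATAAA (13.6%) or the glucocorticoid receptor half-site AGAACA (18.9%), which says only that these letters are not there. The 5 windows of Prkar1b are not printed. Pla2g3 and Inpp5j are named only.

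**Figure D1:**
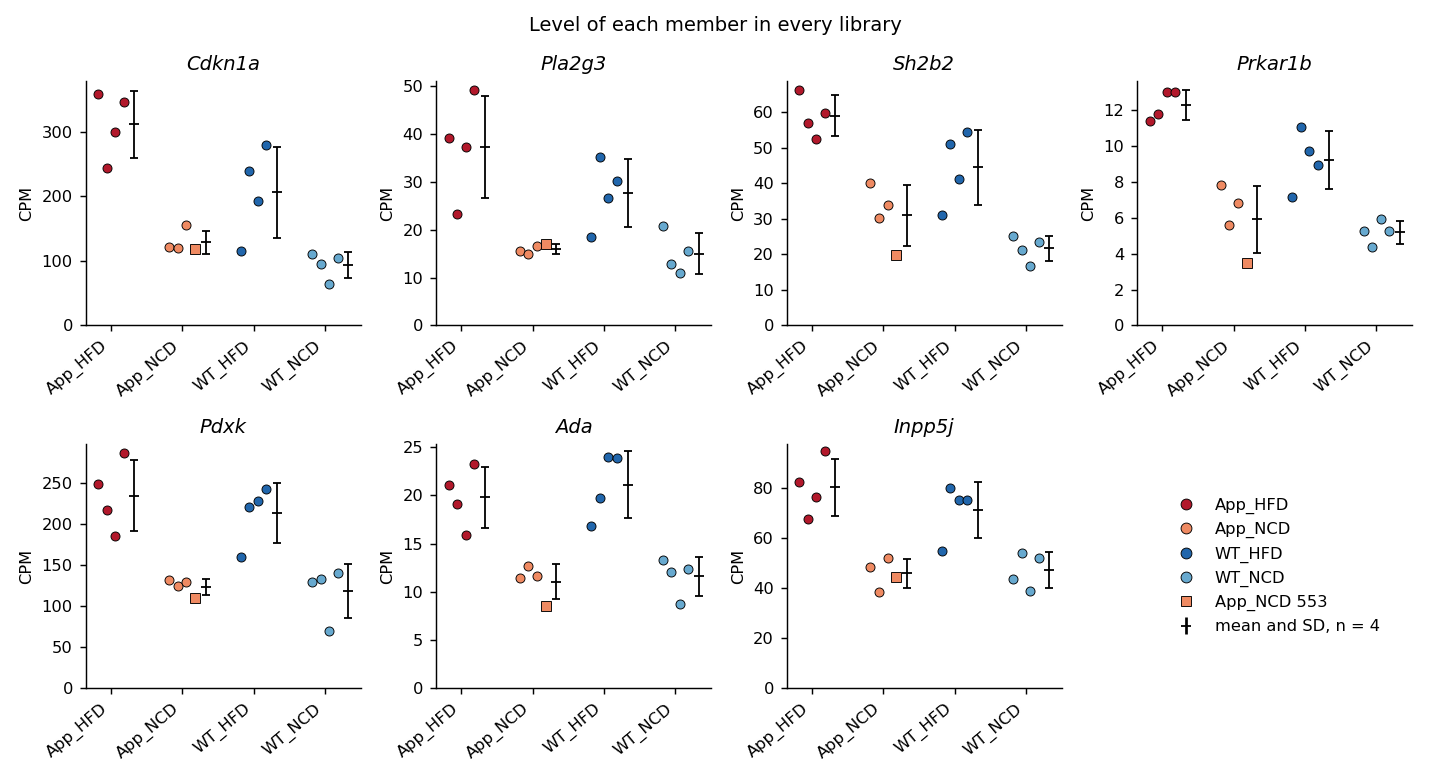
CPM of each of the 7 genes (vertical axis, starting at 0) in every library of App_HFD, App_NCD, WT_HFD and WT_NCD. Circles are libraries, the square is App_NCD 553, and bars are the mean and SD of 4. Within a genotype the high-fat libraries lie above the control-diet libraries, except Pla2g3 in WT_HFD 2 at 18.4 CPM, below WT_NCD 4 at 20.8 CPM. Across genotypes WT_HFD 2 lies below App_NCD 537 for Cdkn1a, Sh2b2 and Prkar1b.

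Per kilobase of exon, Cdkn1a was the most abundant member and Prkar1b the least. Over the 15 libraries other than App_NCD 553 the mean level was 53.3 ± 27.3 CPM per kb for Cdkn1a (SD, all groups together), 32.8 ± 11.3 for Pdxk, 12.2 ± 3.46 for Inpp5j, 8.18 ± 2.55 for Ada, 7.45 ± 2.91 for Sh2b2, 5.2 ± 2.43 for Pla2g3 and 2.22 ± 0.789 for Prkar1b. Neighbours in this order differed by less than the larger of their SDs, except Pdxk with Inpp5j, Inpp5j with Ada and Pla2g3 with Prkar1b.

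The averaged diet contrast that chose the members called 10 of 21768 genes (0.0459%) in edgeR at an adjusted p under 0.05, all higher on the high-fat diet, and the members are 7 of these 10. The other 3 were Gm43089, 9330121J05Rik and 2700046A07Rik. Without App_NCD 553 it called 57 of 22322 (0.255%), the 7 members among them. The member just inside the threshold was Pla2g3, at rank 10 by p, and just outside was Spns2, a sphingosine phosphate transporter, with a diet value of 0.56 ± 0.0944. Leaving out a single library other than App_NCD 553, App_HFD 559 or WT_HFD 2 left 0 or 1 genes called. The members' values themselves moved little: over 24 alternatives the averaged diet value stayed between 0.99 and 1.31 for Cdkn1a and between 0.49 and 0.81 for Inpp5j. These are the values that chose the members, so their stability is a description only.

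The diet values within each genotype are a description as well, since their average chose the members. Within wild type alone or App alone, edgeR called 0 of 21768 genes for diet with 16 libraries. DESeq2 on the same libraries called 7 genes for diet in wild type and 102 in App. Without App_NCD 553, WT_HFD 2 and WT_HFD 16, edgeR called 7 in wild type and 0 in App. In edgeR with 16 libraries the diet value in App was 1.27 ± 0.242 for Cdkn1a, 1.22 ± 0.246 for Pla2g3, 1.05 ± 0.217 for Prkar1b and between 0.81 and 0.93 for the other 4. In wild type it was 1.14 ± 0.241 for Cdkn1a, 1.04 ± 0.215 for Sh2b2, and between 0.60 and 0.88 for the other 5. Without App_NCD 553 the App values were 0.77 ± 0.178 for Sh2b2 and 0.87 ± 0.161 for Prkar1b, the members that moved most. Pla2g3 then had 1.25 ± 0.259 in App, the highest of the 7.

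**Figure D2:**
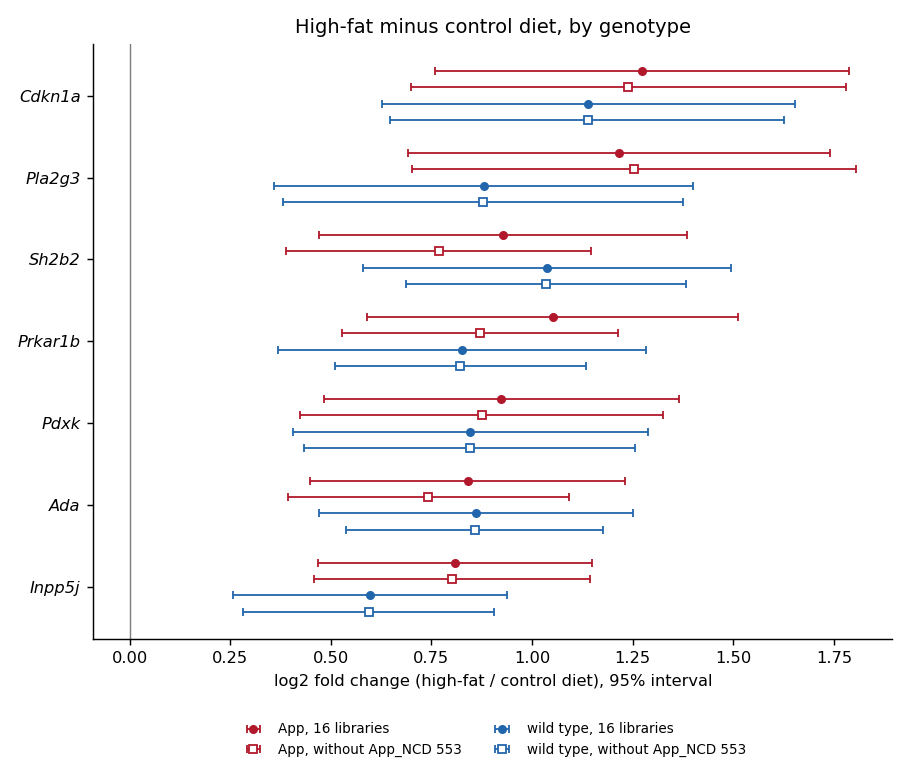
Log2 fold change of the high-fat over the control diet in App (red) and wild type (blue) for each member (horizontal axis), with 95% intervals. Filled circles use 16 libraries and open squares leave out App_NCD 553. The values lie between 0.59 and 1.27, and the intervals are no test because the averaged diet contrast chose the genes.

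Within groups the members often deviated in the same direction in a library. The share of all genes that did the same was not computed, so these counts do not set the members apart from other genes. All 7 were below their group's mean log2 level in WT_HFD 2 (median deviation -0.39), where all 7 were the lowest of the group, and 6 of 7 were lowest in WT_NCD 11 (median deviation -0.40). All 7 were above their group's mean in App_HFD 561, App_NCD 545 and WT_NCD 12, and all 7 below it in App_HFD 559. WT_HFD 2 also had the highest summed erythroid markers of the 16, at 9049 CPM, against 384 to 4719 CPM in the other WT_HFD libraries, and the highest choroid plexus and ependyma sum, at 36544 CPM. WT_HFD 16, with the 4719 CPM, had 6 of 7 members above its group's mean. The summed neuronal markers were lowest of their group in WT_HFD 2 (155 CPM), WT_NCD 11 (122 CPM) and App_HFD 559 (136 CPM), and highest of their group in App_HFD 561 (163 CPM). App_NCD 545 (112 CPM) and WT_NCD 12 (147 CPM), with all 7 members above the mean, did not have the highest neuronal sum of their group. In App_NCD the lowest neuronal sum was in 538, whereas 5 of 7 members were lowest in 553. The myelin sum was highest of its group in WT_HFD 2 (75750 CPM) and WT_NCD 11 (78047 CPM), but lowest in App_HFD 559 (50144 CPM). Within App_HFD the microglial sum was highest in 559 (16911 CPM) and lowest in 561 (10017 CPM). WT_NCD 11 had the lowest mitochondrial share, at 1.22%. The part of these shares in the members' levels was not tested, and in bulk RNA fewer cells of a type and less RNA per cell cannot be told apart.

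**Figure D3:**
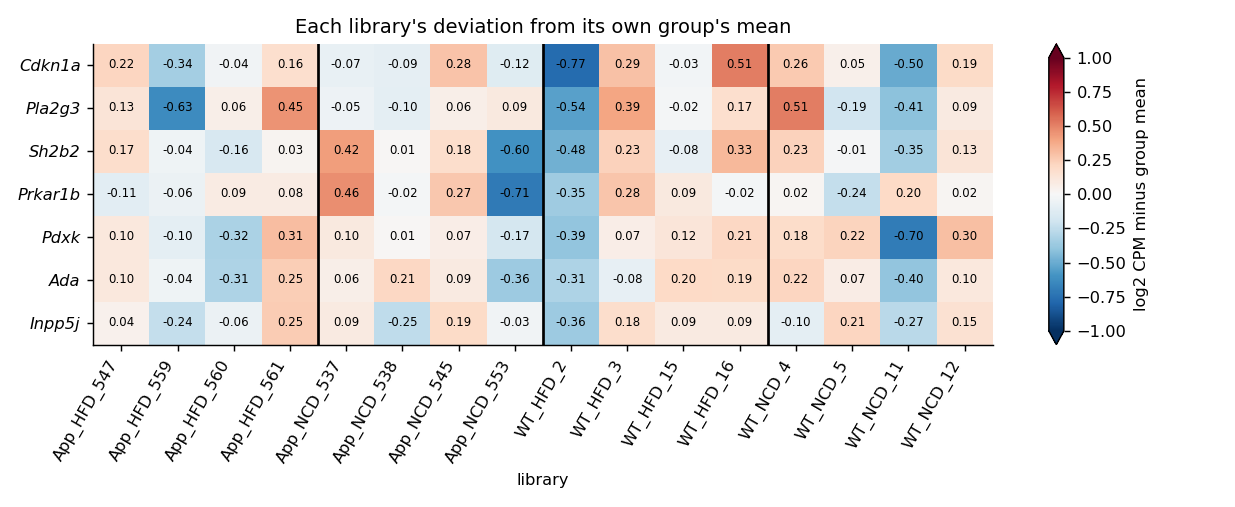
Deviation of each library's log2 CPM from the mean of its own group of 4, for the 7 members (rows) and the 16 libraries (columns, grouped). Red is above and blue below the group mean. WT_HFD 2 is below its group for all 7 members, and WT_NCD 11 for 6 of 7.

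The summed level of neuronal markers differed between the diets, though their single genes mostly did not pass. The summed level of the 12 neuronal genes was 136 to 163 CPM in App_HFD, against 108 to 129 CPM in App_NCD, and 155 to 190.3 CPM in WT_HFD, against 122 to 150.2 CPM in WT_NCD, without overlap in either genotype. In edgeR 0 of the 12 passed with 16 libraries (8 of 12 positive, median log2 fold change 0.18). Without App_NCD 553, 12 of 12 were positive with a median of 0.38, and 1 passed, Tubb3, a neuronal tubulin (0.64 ± 0.0847). No neuronal marker was at 0 in all libraries, and their part in the members' diet difference was not tested. The myelin list summed to 50144 to 64114 CPM in App_HFD, against 45688 to 72840 CPM in App_NCD, and to 64590 to 75750 CPM in WT_HFD, against 57640 to 78047 CPM in WT_NCD. It overlapped between the diets and 0 of 30 genes passed for diet, but 25 of 30 were positive (median 0.12), and 23 of 30 without App_NCD 553. For the other lists 0 genes passed for diet as well. Of 5 erythroid markers 5 were positive (median 0.64), and of 15 microglial markers 3 were positive, or 0 without App_NCD 553. Of 12 astrocyte markers 6 were positive, or 12 without it. Of 12 oligodendrocyte precursor markers 10 were positive (median 0.14), or 11 without App_NCD 553 (median 0.16). Endothelial markers were positive in 7 of 12, or 10 without it, and pericyte and smooth muscle markers in 7 of 10, or 6. Of 15 genes of the plaque-associated microglial state 2 were positive, or 1 without it. Choroid plexus and ependyma markers were positive in 3 of 10 in either fit.

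Genotype was a contrast that the choice of members did not use. Averaged over the diets, edgeR called 2 of 7 members higher in App, while it called 3692 of 21768 genes in all (17.0%). Of these calls 62.6% were higher in App, a split that was 94% with scaling to the myelin list and 38.9% with library totals alone. Cdkn1a averaged 311 ± 51.8 CPM in App_HFD and 206 ± 70.6 CPM in WT_HFD, and 129 ± 18.0 CPM in App_NCD against 93.6 ± 20.2 CPM in WT_NCD (n = 4 each, SD). The genotypes overlapped on the high-fat diet and did not overlap on the control diet. The log2 fold change was 0.53 ± 0.169 (edgeR adjusted p = 0.0422). Sh2b2 averaged 58.9 ± 5.76 CPM in App_HFD and 44.4 ± 10.525 CPM in WT_HFD, and 30.9 ± 8.50 CPM in App_NCD and 21.6 ± 3.61 CPM in WT_NCD. These groups overlapped on both diets, on the control diet through App_NCD 553 alone, and the value was 0.46 ± 0.151 (edgeR adjusted p = 0.0471).

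Neither call was firm. Over the 16 fits that each left out 1 library, Cdkn1a passed in 3 (edgeR adjusted p 0.0244 to 0.0991) and Sh2b2 in 2 (0.00344 to 0.117). Both passed without App_NCD 553 and without WT_HFD 16. DESeq2 also passed both (DESeq2 adjusted p = 0.0201 for Cdkn1a and 0.0252 for Sh2b2). RLE scaling passed Cdkn1a (edgeR adjusted p = 0.0437) and left Sh2b2 at 0.05. Over all 24 alternatives Cdkn1a passed in 7 and Sh2b2 in 5. With a covariate from markers of other cell types the genotype value was larger and did not pass, at 1.25 for Cdkn1a (edgeR adjusted p = 0.728) and 1.10 for Sh2b2 (adjusted p = 0.697). The lists behind this covariate themselves differ between the genotypes, and with it the calls over all genes fell from 3692 to 37. That fit can therefore not decide whether the calls of Cdkn1a and Sh2b2 hold. Scaling to the myelin list gave 0.85 for Cdkn1a and 0.76 for Sh2b2, both past the threshold. Library totals alone gave 0.34 and 0.30, which did not pass (edgeR adjusted p = 0.313 for Cdkn1a and 0.393 for Sh2b2). Without App_NCD 553 Prkar1b passed as well (0.37 ± 0.107, edgeR adjusted p = 0.0147), so 3 of 7 members were called while 33.6% of all genes were. The other 4 members had values between -0.08 and 0.26 with 16 libraries, and none passed. The 95% interval was -0.35 to 0.19 for Ada, -0.17 to 0.31 for Inpp5j and -0.21 to 0.41 for Pdxk, which span 0 in each case. Microglial markers rose in the same contrast (14 of 15, and 14 of 15 genes of the plaque-associated state), with a summed level of 10017 to 16911 CPM in App_HFD against 2959 to 5546 CPM in WT_HFD, and of 7599 to 15769 CPM in App_NCD against 3928 to 6490 CPM in WT_NCD. Markers lower in App were 8 of 10 for choroid plexus and ependyma, 6 of 10 for pericytes and smooth muscle, 5 of 12 for endothelium (10 of 12 without App_NCD 553), 3 of 5 for erythroid cells, and 3 of 30 for myelin (9 of 30 without App_NCD 553). Also lower were 2 of 12 astrocyte (7 of 12 without App_NCD 553), 1 of 12 neuronal (4 of 12) and 2 of 12 oligodendrocyte precursor markers (2 of 12). Higher in App were 1 astrocyte, 2 oligodendrocyte precursor and 1 pericyte or smooth muscle marker. The part of these cell types in the values of Cdkn1a and Sh2b2 was not tested.

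On a single diet no member passed with 16 libraries. On the control diet 0 of 7 were called, against 8.39% of all genes, and without App_NCD 553 Sh2b2 alone passed (0.65 ± 0.174, edgeR adjusted p = 0.0189), against 17.5% of all genes. On the high-fat diet 0 of 7 were called in either fit, against 7.14% of all genes and 19.3% without App_NCD 553. Cdkn1a had 0.59 ± 0.239 on this diet (edgeR adjusted p = 0.176) and Prkar1b 0.42 ± 0.214 (adjusted p = 0.338).

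The diet difference was not shown to differ between the genotypes. The interaction called 0 of 7 members and 0 of 21768 genes in edgeR (0% with and without App_NCD 553), 639 genes had an unadjusted p under 0.05, and DESeq2 called 3 genes, none a member. The App minus wild-type difference of the diet effect was 0.34 for Pla2g3, with a 95% interval of -0.40 to 1.07, and 0.21 for Inpp5j (-0.27 to 0.69). It was 0.13 for Cdkn1a (-0.58 to 0.85), 0.22 for Prkar1b (-0.42 to 0.87), 0.08 for Pdxk (-0.54 to 0.69), -0.02 for Ada (-0.57 to 0.53) and -0.11 for Sh2b2 (-0.75 to 0.53). With intervals this wide, equal effects in the genotypes are not shown either.

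**Figure D4:**
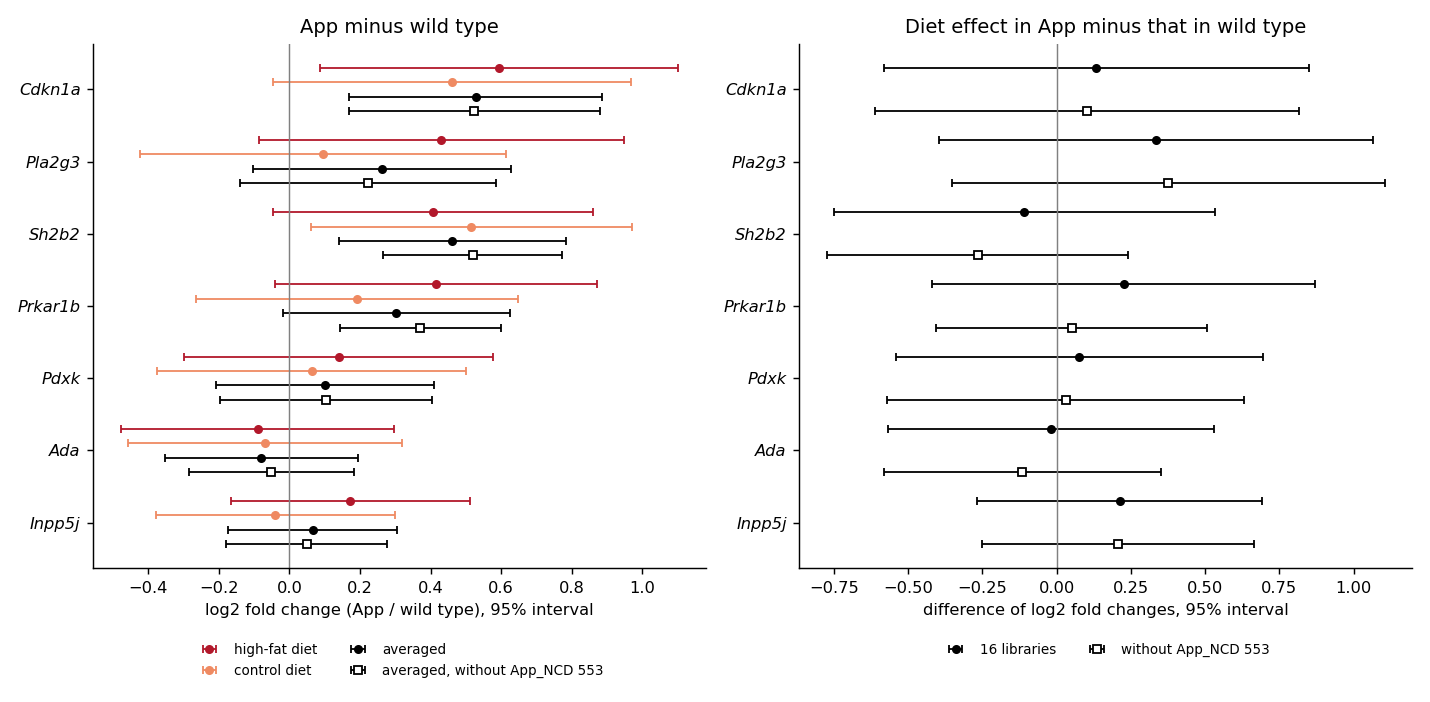
Left, log2 fold change of App over wild type for each member on the high-fat diet, the control diet and averaged. Right, the diet effect in App minus that in wild type. Bars are 95% intervals, and open squares leave out App_NCD 553. The averaged intervals of Cdkn1a (0.17 to 0.89) and Sh2b2 (0.14 to 0.78) lie above 0, and every interaction interval crosses 0.

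No gene of the 8 lists of related genes passed for diet with 16 libraries in edgeR. Genotype counts of these lists are to be read against the 17.0% of all genes called, or 33.6% without App_NCD 553. Without that library the diet medians of the 8 lists ran from -0.04 to 0.09, and their sign turned for the p53, phospholipase, insulin receptor, adenosine and inositol lists. Of 6 other cyclin-dependent kinase inhibitors 0 passed (median log2 fold change 0.06, against 0.01 over all genes). Cdkn1b, the closest relative of Cdkn1a, encodes p27 and was picked with its values in view. Its diet value was -0.34 ± 0.314 (edgeR adjusted p = 0.839), and 0.16 ± 0.132 without App_NCD 553 (adjusted p = 0.767). Of the 28 genes of the p53 list, which holds target genes and p53 itself (Trp53), 0 passed, with a median of -0.02. For genotype, 2 of the 6 inhibitors were higher in App, Cdkn2a (3.49 ± 0.563), which encodes p16 and p19, and Cdkn2c (0.69 ± 0.15), which encodes p18. Of the p53 list 6 were higher and 1 lower in App, and without App_NCD 553 7 were higher and 7 lower. Examples were Tigar (1.24 ± 0.113), a regulator of glycolysis, Pmaip1 (1.17 ± 0.171), the pro-apoptotic Noxa, and Ccnd1 (1.12 ± 0.167), cyclin D1.

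Among adaptors of the insulin receptor 0 of 15 passed for diet (median 0.03). Sh2b1, the relative of Sh2b2 and also picked with its values in view, had 63.9 ± 5.18 CPM in App_HFD and 51.7 ± 27.0 CPM in App_NCD, and 53.4 ± 1.72 CPM in WT_HFD and 52.96 ± 3.904 CPM in WT_NCD. Its diet value was 0.16 ± 0.243 (edgeR adjusted p = 0.914). For genotype 3 were higher, among them the adaptor Shc1 (0.69 ± 0.108) and the ubiquitin ligase Cbl (0.43 ± 0.0906), and 3 lower, among them Grb10 (-0.73 ± 0.162), which restrains insulin receptor signalling, while without App_NCD 553 the counts were 6 and 6. Of 18 protein kinase A subunits, inhibitors and anchors 0 passed for diet (median -0.03). Prkar1a, the widely expressed relative of Prkar1b picked in the same way, had 389.9 ± 25.0 CPM in App_HFD and 355 ± 36.3 CPM in App_NCD, and 361 ± 7.499 CPM in WT_HFD and 397 ± 109 CPM in WT_NCD. For genotype 4 were higher, with the anchor Akap5 at 2.69 ± 0.191 and the inhibitor Pkib at 3.10 ± 0.318, and Prkar2b was lower (-0.60 ± 0.157). Without App_NCD 553, 6 were higher and 3 lower.

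Of 13 tested phospholipase A2 genes 0 passed for diet (median -0.07), and for genotype the lysosomal Pla2g15 (1.14 ± 0.26) was among 2 higher and the secreted Pla2g5 (-0.91 ± 0.162) among 3 lower. Of 25 inositol phosphatase and PI3-kinase genes 0 passed for diet (median 0.01). For genotype 5 were higher, led by Inpp5d (1.17 ± 0.206), the phosphatase SHIP of blood and microglial cells, and 1 was lower, the regulatory subunit Pik3r3 (-0.45 ± 0.104). Without App_NCD 553 the phospholipase list had 3 higher and 4 lower, and the inositol list 8 higher and 2 lower.

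Of 21 genes of vitamin B6 metabolism and its enzymes 0 passed for diet with 16 libraries, 17 were positive and the median was 0.16, and without App_NCD 553 14 were positive and the median was 0.09. Gpt2, an alanine transaminase that uses the cofactor, averaged 137 ± 14.0 CPM in App_HFD and 74.6 ± 25.7 CPM in App_NCD, and 125 ± 17.2 CPM in WT_HFD and 98.3 ± 13.1 CPM in WT_NCD. Its diet value was 0.61 ± 0.156 (edgeR adjusted p = 0.399), and 0.50 ± 0.0929 without App_NCD 553 (adjusted p = 0.0387), the only pathway gene called in that fit. For genotype 2 of the list were higher and 2 lower, and 2 and 7 without App_NCD 553. Of 25 genes of adenosine and purine handling 0 passed for diet (median 0.10 with 14 positive, and -0.03 with 12 positive without App_NCD 553). For genotype 4 were higher, such as the adenosine receptor Adora3 (1.08 ± 0.147) and the ectonucleotidase Entpd1 (1.01 ± 0.154), and 4 lower, such as adenosine kinase, Adk (-0.58 ± 0.113). Without App_NCD 553 the counts were 5 and 8.

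Of the nearest protein-coding genes beside the members, leaving out Pla2g3 and Inpp5j, 11 were tested and 0 passed for diet in edgeR, with or without App_NCD 553. Their averaged diet values ran from -0.21 for Cux1 to 0.53 ± 0.421 for Wisp2, which averaged only 0.19 CPM. The next highest value was 0.44 ± 0.24 for Selenom. Dnaaf5, a dynein assembly factor that starts 221 bases from Prkar1b, had 0.09 ± 0.097 (edgeR adjusted p = 0.862), and Pkig, an inhibitor of protein kinase A that ends 425 bases from Ada, had 0.10 ± 0.114 (adjusted p = 0.878). Trp53cor1, a p53-dependent long RNA beside Cdkn1a picked with its values in view, had 0.38 ± 0.215 (adjusted p = 0.74). Cux1, a homeobox factor 1578 bases from Sh2b2, was higher in App: 106 ± 12.0 CPM in App_HFD against 73.4 ± 6.21 CPM in WT_HFD, and 142 ± 32.6 CPM in App_NCD against 74.1 ± 4.26 CPM in WT_NCD. Its genotype value was 0.73 ± 0.106 (edgeR adjusted p = 1.67e-04), and it held no overlap between genotypes on either diet.

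**Figure D5:**
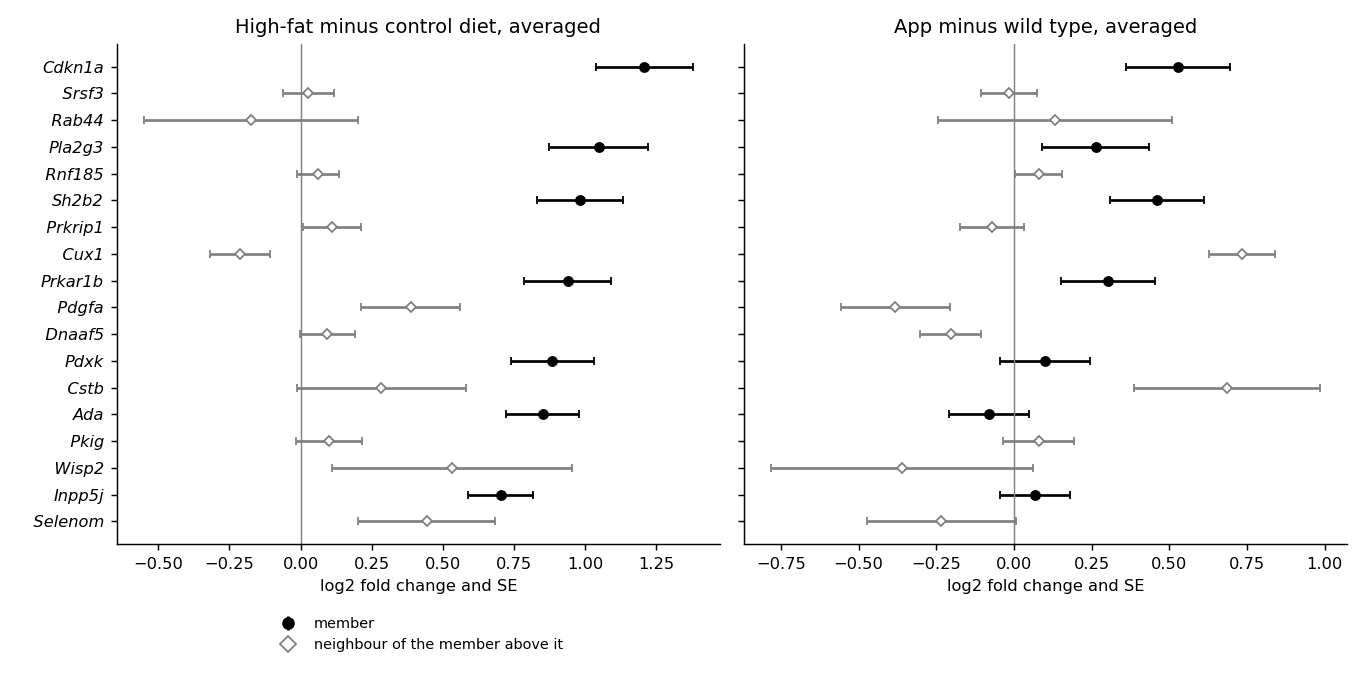
Log2 fold change and SE of the averaged diet contrast (left) and the averaged genotype contrast (right) for each member (filled circles) and its tested neighbours (open diamonds, listed under the member). Member diet values lie at 0.70 or above, and neighbour diet values between -0.21 and 0.53, the latter for Wisp2 at a mean of 0.19 CPM. Cux1 has the highest genotype value shown, 0.73.

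Across the 15 libraries other than App_NCD 553, the genes most like each member in log2 CPM were partly other members. Among 13531 genes averaging 1 CPM or more, Pearson r was 0.96 between Cdkn1a and Sh2b2, 0.956 between Cdkn1a and Gpd1, a glycerol phosphate dehydrogenase, and 0.957 between Ada and Pdxk. For Pla2g3 the closest were Crmp1 (0.963) and Gpd1 (0.95), and for Sh2b2, after Cdkn1a, Fam117b (0.959). For Prkar1b they were Rnpep (0.907) and Sh2b2 (0.906), for Pdxk Tma16 (0.969) and Zfp365 (0.965), for Ada, before Pdxk, Phactr3 (0.96), and for Inpp5j Mast3 (0.97) and Pxylp1 (0.967). These are descriptions: the libraries share the diet difference that chose the members.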

How the data were processed

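Poly(A) RNA of oligodendrocytes sorted from brain was measured in 16 libraries, 4 per group, 1 per mouse number in the labels. Replicate numbers are not shared between groups, so nothing was paired. The table deposited by the authors holds estimated counts per gene, all whole numbers. The submitters' processing notes name fastp 0.23.2, HISAT2 2.2.1, bedtools 2.25.0, StringTie 2.2.1 and mm10. The strand setting and annotation of the counting are not given in the sources used here. Counts estimated by coverage can be divided between overlapping genes.

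Counts were filtered with filterByExpr, scaled by TMM and tested with edgeR 4.0.16 (R 4.3.3, robust quasi-likelihood test, 4 groups, 12 residual degrees of freedom). P-values were adjusted over all tested genes by Benjamini-Hochberg, at a threshold of 0.05. Intervals are 95% intervals of the log2 fold change. The smallest member count was 122, and counting error bears most on Prkar1b. The test was also run on simulated counts. The outcome of that run is not reported here, so it lends no weight to the calls or to the main fit. Positions came from GENCODE release M21 and promoter windows from RefSeq, which held 5 of 7 members.

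The members and gene lists were chosen with earlier results of these data known. Named genes are the 7 members, up to 5 called genes per list by adjusted p (the 2 most abundant where none passed), the nearest protein-coding gene on each side, the 2 genes most like each member, App, and markers where their list touches a result. The alternatives were DESeq2 1.42.0, RLE scaling, library totals, scaling to the myelin list, no filter, a covariate from markers of other cell types, the 8 libraries of a pair alone, and each library left out. Fits without WT_HFD 2 and 16 were added after seeing the data.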

Additional observations from a re-analysis of the deposited data

Results flagged for a closer look

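Of 28 groups of 4 values (7 genes, 4 groups), 2 held a library far from the other 3 by the gap to its nearest neighbour over the range, a test that chance passes in about 1 of 20 groups. Cdkn1a was at 156 CPM in App_NCD 545, against 118 to 121 CPM in the other App_NCD libraries. Pdxk was at 70.4 CPM in WT_NCD 11, against 130.2 to 141 CPM in the other WT_NCD libraries.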

How the results depend on the processing

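The averaged diet values of the members kept their direction in all 168 values over 24 alternatives, with the members' median between 0.77 and 1.02. This contrast chose the members from the same libraries, so the kept direction is a description and no support for a diet effect. The median gene was at -0.20 in the genotype contrast and 0.09 in the diet contrast with library totals alone, and at 0.32 and -0.18 with scaling to the myelin list, against -0.01 and 0.01 with TMM, so genotype values near 0 have no fixed sign. With library totals alone the genotype value averaged over diets was -0.13 for Inpp5j and -0.081 for Pdxk, that on the control diet -0.20 for Pdxk, -0.21 for Pla2g3 and -0.014 for Prkar1b, and the interaction 0.12 for Ada. With scaling to the myelin list the genotype value of Ada was 0.24 averaged, 0.39 on the control diet and 0.087 on the high-fat diet, and that of Inpp5j on the control diet 0.49. The interaction was then -0.20 for Cdkn1a, -0.15 for Inpp5j, -0.25 for Pdxk, -0.021 for Pla2g3 and -0.039 for Prkar1b. The other-cell covariate gave Inpp5j 0.46 on the control diet. Without WT_HFD 2 and 16, a choice made after seeing the data, the averaged genotype value of Inpp5j was -0.028. With App_NCD 553 left out as well it was -0.012, Ada had 0.00414 on the control diet, and the interaction was -0.041 for Pdxk and -0.12 for Prkar1b. The cause was not tested.

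For genotype averaged over the diets, 2 members were called, against 0 with library totals alone, no filter, the covariate or WT_HFD 2 and 16 left out, and 0 to 3 when 1 library was left out. On the control diet 0 were called, against 2 with scaling to the myelin list, 1 with App_NCD 553 and WT_HFD 2 and 16 left out, and 0 to 1 with 1 library left out. In the pathway lists and neighbours 0 were called for diet, against 2 in DESeq2 (Adora1, 0.40 ± 0.0985, and Gpt2, 0.60 ± 0.164), 1 with the 3 libraries left out, and 0 to 1 with 1 left out. Over all genes the 10 diet calls became 111 in DESeq2, 0 with library totals, no filter, the covariate or the myelin list, and 0 to 57 with 1 library left out, while the 3692 genotype calls became 37 with the covariate.

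With 1 library left out, the genotype value averaged over diets ran from -0.015 to 0.073 for Inpp5j and from -0.021 to 0.12 for Pdxk. On the control diet it ran from -0.22 to 0.00608 for Ada, -0.16 to 8.32e-05 for Inpp5j, -0.16 to 0.12 for Pdxk, -0.062 to 0.26 for Pla2g3 and -0.00328 to 0.35 for Prkar1b. The interaction ran from -0.12 to 0.10 for Ada, -0.052 to 0.32 for Cdkn1a, -0.025 to 0.27 for Pdxk and -0.27 to 0.046 for Sh2b2. No paired analysis was possible because no replicate number is shared between groups.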
